A study of Mus musculus with 6 samples.

Results

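Aminoacyl-tRNA synthetases join each amino acid to its tRNA, the step that gives the genetic code its meaning in translation. Mammalian cells keep separate sets of these enzymes for the cytosol and for mitochondria, both encoded in the nucleus. Several cytosolic enzymes sit in a multisynthetase complex held together by scaffold proteins, and many of the cytosolic genes are known targets of ATF4, the transcription factor of the integrated stress response. That response begins when kinases phosphorylate eIF2, and it raises the supply of amino acids and of charged tRNA.

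The set comprised 35 synthetase genes, 20 of the cytosolic and 15 of the mitochondrial enzymes, matched by exact gene symbol. No value entered the matching, but earlier results of these data were known when the set was chosen. Of these, 33 were measured among 18193 named genes: 18 cytosolic and all 15 mitochondrial genes. Dars and Mars, for aspartate and methionine, matched no row by symbol and were not analysed here. The mitochondrial synthetase gene Lars2 lay outside the set and is given with the other charging genes. Gars and Kars were counted as cytosolic, although their genes also supply the mitochondrial glycyl and lysyl enzymes. Each gene was read on its brightest probe set and no gene was removed for a low level, so all 33 entered the comparison.

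The cells were R1 mouse embryonic stem cells of (129X1 x 129S1)F1 origin, either Sirt1+/+ or Sirt1-/-. The gene encodes a deacetylase that uses NAD. All cells grew in medium with 15% serum and 100 IU/ml of leukaemia inhibitory factor (LIF) on 0.1% gelatin. From each genotype 3 samples were hybridised, 1 per Affymetrix 3' expression array, and the comparison asks which transcripts differ where Sirt1 is missing. Only 1 wild-type and 1 knockout source are named, with no statement on separate clones or cultures. Loss of Sirt1 and any other difference between the sources cannot be told apart, and the p-values speak for the spread between these arrays alone, which could be technical.

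Values are log2 RMA levels, on which a difference of 1 is a doubling. An adjusted p here comes from limma across all genes, with Benjamini-Hochberg adjustment, and a gene rose or fell where it was under 0.05. Array medians lay between 4.51 and 4.57, and Pearson's r across genes, which are not independent replicates, was 0.997 to 0.998 within a genotype. Sirt1 read 10.12, 10.13 and 10.23 on the wild-type arrays and 8.02, 7.94 and 8.20 on the knockout arrays, 4.31-fold lower (limma adjusted p = 3.98e-05), and where its probe set lies relative to the deletion is not given in the labels. Embryonic stem cell markers averaged 11.54 to 11.59 on the wild-type arrays and 11.37 to 11.40 on the knockout arrays. Of the 10, 1 was higher (Lin28a, log2 change 0.63) and 5 were lower, among them Nanog (-0.90) and Tdgf1 (-0.65). Fibroblast markers averaged 4.19 to 4.23 and 4.05 to 4.17, with 1 of 10 higher and 2 lower, near the shares of all genes (12.5% and 17.5%). Primitive endoderm markers averaged 5.84 to 5.88 and 4.88 to 5.03, with none higher and 7 of 10 lower, among them Dab2 (-1.80) and Gata6 (-1.33). RMA values have no true 0, so none of these markers can be called absent. The part of these markers in the synthetase results was not tested, and in bulk RNA fewer cells of a type and less RNA per cell cannot be told apart.

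In the knockout 10 of 18 cytosolic genes rose and none fell (limma; 1 of the 18, Hars, was lower at an unadjusted p under 0.05). Of 15 mitochondrial genes 1 rose and 3 fell. Over all named genes 12.5% rose and 17.5% fell, 30.0% in all. The median log2 change was 0.23 for the cytosolic genes, -0.12 for the mitochondrial genes and -0.01 for all genes, so the cytosolic median lay 0.35 above the mitochondrial one. These medians describe the members and carry no test. The 2 sets also differ in level. On the wild-type arrays the cytosolic genes averaged 10.30 to 10.32 and the mitochondrial genes 7.09 to 7.17, against a median gene level of 5.83. A brighter gene is more easily called, and the part of level in these counts was not tested.

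**Figure D1:**
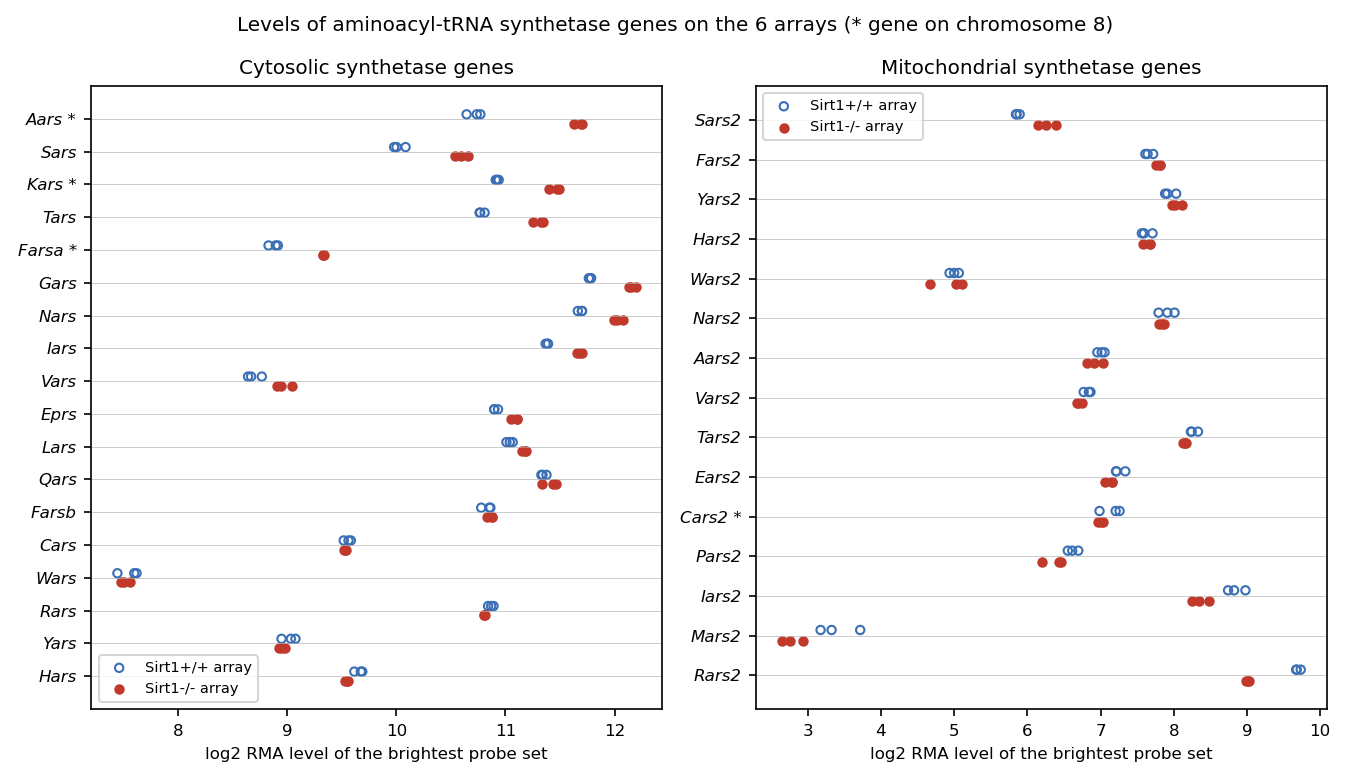
Levels of the 33 synthetase genes (log2 RMA, brightest probe set) on each of the 3 Sirt1+/+ arrays (open circles) and 3 Sirt1-/- arrays (filled circles), with genes ordered by their change and an asterisk on genes of chromosome 8. For Aars the knockout arrays lie at 11.63 to 11.70 and the wild-type arrays at 10.64 to 10.77, whereas for Rars2 the knockout arrays lie below the wild-type ones.

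Aars, the alanyl-tRNA synthetase, showed the largest rise of the 33 genes. It read 10.77, 10.74 and 10.64 on the wild-type arrays and 11.70, 11.63 and 11.70 on the knockout arrays. The 3 knockout values lay close together and well above every wild-type value. The log2 change was 0.96 (SE 0.05), or 1.94-fold (limma adjusted p = 0.000103). Its other probe set rose by 0.94, so both measurements of the gene gave nearly the same change.

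Sars and Tars, which charge serine and threonine tRNAs, rose by about the same amount. Sars read 10.00, 9.98 and 10.09 on wild-type arrays and 10.54, 10.66 and 10.59 on knockout arrays, which differ by 0.57 (log2; SE 0.05; limma adjusted p = 0.000579). Tars read 10.76, 10.77 and 10.81 on wild-type arrays and 11.25, 11.35 and 11.32 on knockout arrays, which differ by 0.53 (log2; SE 0.05; limma adjusted p = 0.000512). Neither gene had overlapping groups, and the second Sars probe set rose by 0.49.

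Kars, for lysine, and Farsa, the catalytic subunit of phenylalanyl-tRNA synthetase, also rose, Kars by as much as Tars. Kars read 10.94, 10.91 and 10.92 on wild-type arrays and 11.49, 11.40 and 11.47 on knockout arrays, which differ by 0.53 (log2; SE 0.05; limma adjusted p = 0.000434). Farsa read 8.90, 8.83 and 8.92 on wild-type arrays and 9.33, 9.33 and 9.34 on knockout arrays, which differ by 0.45 (log2; SE 0.05; limma adjusted p = 0.000744). Both genes were separated between genotypes on every array. Farsb, which encodes the other subunit of the same enzyme, read 10.83 ± 0.05 and 10.86 ± 0.02 (SD, n = 3 each), and its 95% interval of -0.08 to 0.14 includes no change. The change of Farsa exceeded that of Farsb by 0.42 (SE 0.05), and an exact two-sided permutation test of that difference gave p = 0.1, the smallest that 3 against 3 arrays allow. This pair was chosen after its values were seen. Of the other 3 Farsa probe sets 1 rose by 0.67, and the others read 0.14 and 0.12 without passing.

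Gars, Nars and Iars, for glycine, asparagine and isoleucine, rose by less. Gars read 11.76, 11.79 and 11.78 on wild-type arrays and 12.20, 12.13 and 12.15 on knockout arrays, a log2 change of 0.39 (SE 0.04). Nars read 11.66, 11.70 and 11.70, then 12.08, 12.03 and 12.00, a log2 change of 0.34 (SE 0.05). Iars read 11.39, 11.39 and 11.37, then 11.65, 11.69 and 11.70, a log2 change of 0.30 (SE 0.04). All 3 genes had separate groups, with limma's adjusted p of 0.00111, 0.00208 and 0.00287. The second probe sets of Nars and Iars also rose, by 0.36 and 0.41.

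Vars and Eprs gave the smallest called rises. Vars, for valine, read 8.67, 8.64 and 8.77 on wild-type arrays and 8.90, 8.94 and 9.05 on knockout arrays, which differ by 0.27 (log2; SE 0.06; limma adjusted p = 0.0164). Eprs, a single protein that charges both glutamate and proline tRNAs, read 10.90, 10.90 and 10.93, then 11.10, 11.11 and 11.05, which differ by 0.18 (log2; SE 0.04; limma adjusted p = 0.0254). Their groups did not overlap, yet both calls were lost when any of several arrays was left out. With 1 array left out the log2 change itself stayed at 0.23 to 0.31 for Vars and 0.17 to 0.20 for Eprs. The Vars call was lost without wild-type replicate 1 (adjusted p = 0.062), wild-type replicate 2 (0.0538) or knockout replicate 3 (0.052). The Eprs call was lost without wild-type replicate 1 (adjusted p = 0.0881), 2 (0.069) or 3 (0.0515) and without knockout replicate 1 (0.0696) or 2 (0.0823). Of the 3 other Eprs probe sets, 2 rose and the remaining one read 0.24 with an adjusted p of 0.067 over all probe sets (limma).

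The remaining 8 cytosolic genes did not pass the test. Lars, for leucine, came nearest, at 11.07, 11.04 and 11.01 on wild-type arrays and 11.18, 11.19 and 11.15 on knockout arrays (log2 change 0.13; limma adjusted p = 0.0649). Its groups did not overlap. Hars, for histidine, had the lowest value of the cytosolic genes, -0.12 (limma adjusted p = 0.104), with all knockout arrays below all wild-type arrays, while its second probe set read 0.07. Qars, for glutamine, read 0.07, Cars, for cysteine, -0.02, Rars, for arginine, -0.06, Wars, for tryptophan, -0.04, and Yars, for tyrosine, -0.07. Their 95% intervals reached from -0.19 at the lowest, for Wars and Yars, to 0.19 at the highest, for Qars.

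**Figure D2:**
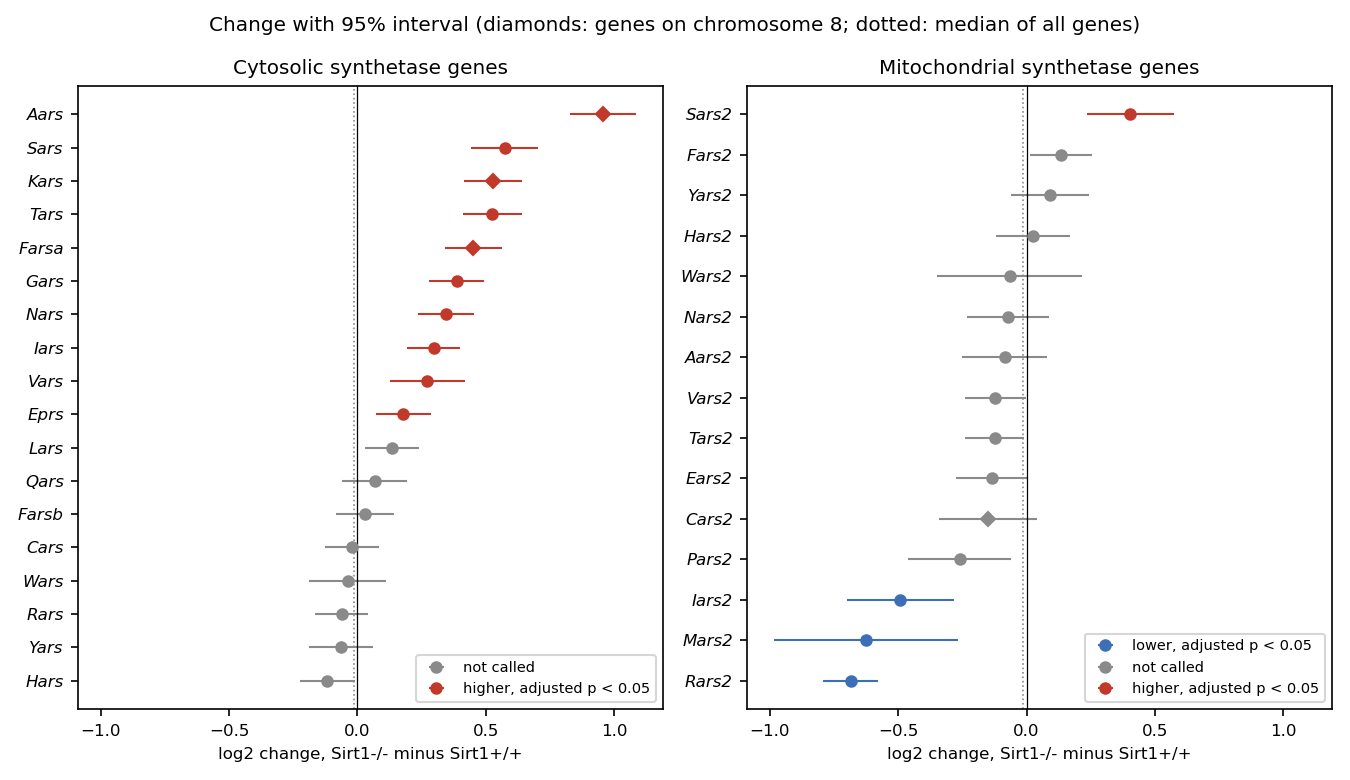
Log2 change (Sirt1-/- minus Sirt1+/+, 3 arrays each) of the 18 cytosolic and 15 mitochondrial synthetase genes with limma's 95% interval, coloured by call at an adjusted p under 0.05. The 10 called cytosolic genes are all to the right of 0, from 0.18 for Eprs to 0.96 for Aars, and 3 of the 4 called mitochondrial genes are to its left.

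The known ATF4 targets held most of the rises, but they also make up 12 of the 18 measured cytosolic genes. Of 12 measured cytosolic genes commonly reported as ATF4 targets, 8 rose and none fell, against 12.5% and 17.5% of all genes. Their median log2 change was 0.28. Aars, Sars, Tars, Gars, Nars, Iars, Vars and Eprs were those that rose, whereas Cars, Lars, Wars and Yars did not pass. Of the 6 other cytosolic genes 2 rose, Kars and Farsa, and the median was 0.05. The difference between these sublists was not tested, and the target list comes from general knowledge.

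Aars, Kars and Farsa share a chromosome that was raised more broadly, so their position is given with their values. This is chromosome 8, where 33.6% of 932 genes rose, against 11.3% of the 17261 other genes. Without chromosome 8, 7 of 15 cytosolic genes rose and the cytosolic median was 0.13 in place of 0.23. Kars and Farsa are also the cytosolic genes that rose without being on the ATF4 list. The mitochondrial gene Cars2 is also on chromosome 8, and it read -0.15 without passing the test. The part of the chromosome in these changes was not tested.

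Of the 6 measured enzymes of the multisynthetase complex Kars, Iars and Eprs rose, and Lars, Qars and Rars did not pass. Of the 12 cytosolic genes outside the complex 7 rose, and the difference was not tested. Over all genes 12.5% rose. The scaffold genes Aimp1, Aimp2 and Eef1e1 read -0.02, -0.04 and 0.12, and none of the 3 passed in limma, with 1 at an unadjusted p under 0.05.

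Promoter sequences were searched for the core of the composite ATF4 and C/EBP site, TGATGNAA, on both strands. RefSeq promoters on GRCm38.p6, which run from 250 bases before to 50 after the annotated start, were at hand for 24 of the 33 genes. The core was found in the promoters of 5 of 11 cytosolic genes, Aars, Gars, Iars, Tars and Yars, and of 0 of 13 mitochondrial genes, against 4.51% of all 27025 genes (3.97% of 32851 promoters, since some genes have several). Among the cytosolic genes it was found in 4 of 8 that rose, and not in Eprs, Kars, Sars or Farsa, and in 1 of 3 that did not pass, Yars. The matches are shown so that the shared letters can be seen. Capitals mark the core, every sequence runs 5′ to 3′ along the gene's own strand, and positions count from the annotated start.

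Aars, positions -138 to -79 (chr8:111033704-111033763, plus strand): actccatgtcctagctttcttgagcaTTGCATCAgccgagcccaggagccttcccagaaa
Tars, positions -60 to -1 (chr15:11399659-11399718, minus strand): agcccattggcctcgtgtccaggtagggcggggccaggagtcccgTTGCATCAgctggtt
Gars, positions -60 to -1 (chr6:55037941-55038000, plus strand): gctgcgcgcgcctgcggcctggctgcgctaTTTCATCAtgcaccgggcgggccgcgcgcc
Iars, positions -4 to 26 (chr13:49682126-49682155, plus strand): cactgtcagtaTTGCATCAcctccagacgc
Yars, positions -8 to 22 (chr4:129189895-129189924, plus strand): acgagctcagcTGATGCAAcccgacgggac

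In Aars, Tars and Iars the core was the same 8 letters in the same orientation, TTGCATCA, the reverse complement of TGATGCAA. Gars had the variant TTTCATCA, and Yars the forward form. A second match in Aars, TTTCATCA, lay at positions 10 to 17. The E-box CACGTG, which reads the same on both strands and is bound by Myc and related factors, was found in 4 of the 11 cytosolic genes (Aars, Iars, Tars and Farsb), in 1 of 13 mitochondrial genes (Ears2) and in 8.09% of all genes (7.15% of promoters). The motifs did not overlap in any of these genes. A match describes the letters and not binding, and a promoter without a match says nothing about the factor.

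The same core was found in 7 of the 24 integrated stress response genes with a promoter at hand, against 4.51% of all genes. These were Trib3, Asns, Chac1, Atf3, Nupr1, Fgf21 and Slc7a11, which all rose. Atf5, Ddit3, Cebpb, Eif2ak3, Stc2, Slc3a2, Psat1, Phgdh and Mthfd2 also rose, and their promoters held no match. In Nupr1, the stress-induced chromatin protein gene with the largest rise of that list, the core had the form of Aars and Tars. In Asns, which encodes asparagine synthetase and rose by 0.51, it was TGATGAAA, the reverse complement of the TTTCATCA of Gars.

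Nupr1, positions -136 to -77 (chr7:126625547-126625606, minus strand): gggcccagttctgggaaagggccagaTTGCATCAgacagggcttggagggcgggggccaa
Asns, positions -60 to -1 (chr6:7693210-7693269, minus strand): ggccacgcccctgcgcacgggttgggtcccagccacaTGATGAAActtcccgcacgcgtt

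Among the mitochondrial synthetases Rars2, for arginine, fell furthest. It read 9.67, 9.73 and 9.68 on the wild-type arrays and 9.03, 8.99 and 9.01 on the knockout arrays. The groups were far apart relative to their spread. The log2 change was -0.68 (SE 0.04), a level 1.61-fold lower (limma adjusted p = 0.000155).

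Iars2, the mitochondrial isoleucyl enzyme gene, also fell. It read 8.82, 8.74 and 8.98 on wild-type arrays and 8.25, 8.35 and 8.48 on knockout arrays, which differ by -0.49 (log2; SE 0.09; limma adjusted p = 0.00618). The groups did not overlap, and a dimmer probe set fell by 0.33. Mars2, for methionine, read 3.72, 3.18 and 3.33, then 2.76, 2.65 and 2.94, which differ by -0.63 (log2; SE 0.15; limma adjusted p = 0.0205). All these values but one lie below the lower quartile of gene levels, 3.65, where background limits what a fold means. With both its probe sets averaged Mars2 read -0.38 and kept its call. The Mars2 call was lost without knockout replicate 1 (adjusted p = 0.0597) or 2 (0.0691).

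Sars2, for serine, rose, as did Lars2 outside the set. It read 5.85, 5.85 and 5.90 on wild-type arrays and 6.26, 6.15 and 6.40 on knockout arrays, which differ by 0.40 (log2; SE 0.07; limma adjusted p = 0.00599). The knockout values were the more spread, yet all lay above the wild-type ones.

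The other 11 mitochondrial genes did not pass, and 8 of them had a negative change. Pars2, for proline, read 6.70, 6.55 and 6.61 on wild-type arrays and 6.45, 6.20 and 6.43 on knockout arrays, a log2 change of -0.26 (limma adjusted p = 0.0593). Tars2 and Vars2 each read -0.12, Cars2 -0.15, Aars2 -0.09, Nars2 -0.07 and Wars2 -0.06. Fars2, for phenylalanine, read 0.14, Yars2 0.09 and Hars2 0.02. The Pars2, Tars2, Vars2 and Ears2 groups did not overlap and the knockout was lower, and Fars2 was higher without overlap. Counting called genes too, 7 of the 15 mitochondrial genes had all knockout arrays below all wild-type arrays and 2 had them above, against 24.7% and 19.1% of all genes (43.8% in either direction). Among the 18 cytosolic genes 11 lay wholly above and 2 wholly below. Cars2 was called lower without wild-type replicate 2 (limma adjusted p = 0.0328, log2 change -0.23). The small Hars2 and Wars2 values changed sign without wild-type replicate 2 (-0.0048) and without knockout replicate 2 (0.07).

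Ears2, for mitochondrial glutamate, gave different answers by probe set. Its brightest probe set read 7.21, 7.22 and 7.34 on wild-type arrays and 7.06, 7.15 and 7.16 on knockout arrays, a log2 change of -0.13 that did not pass (limma adjusted p = 0.147). The 3 dimmer probe sets, with wild-type means of 4.91 to 5.62, fell by 0.92, 0.73 and 0.56 (limma adjusted p over all probe sets of 0.000136, 0.00266 and 0.0133). With all its probe sets averaged Ears2 fell by 0.58 (adjusted p = 0.000431). Of the 35 other probe sets of the 33 genes, 7 were called higher and 5 lower. None was called against a called brightest probe set, and 4 were called where the brightest was not, the 3 of Ears2 and 1 dim Farsb probe set that fell by 0.46. The brightest probe sets of Aars, Iars, Sars, Farsb, Qars and Wars carry the manufacturer's suffix for probes that can match more than one transcript.

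Within the set, 11 pairs of genes had the same name but for the mitochondrial 2 and so the same amino acid. The cytosolic gene had the greater change in 9 of the 11. In 7 pairs the within-array difference was higher on every knockout array than on any wild-type array, in 2 pairs (Hars and Yars) it was lower, and in 2 (Cars and Wars) it overlapped. The changes differed by 1.04 (SE 0.07) for Aars against Aars2, 0.79 (SE 0.09) for Iars against Iars2, 0.65 (SE 0.05) for Tars against Tars2 and 0.62 (SE 0.02) for Rars against Rars2. For Iars the cytosolic gene rose and its partner fell, whereas for Rars only the mitochondrial gene passed the test. By an exact permutation test, two-sided, p was 0.1 for each of the 9 pairs without overlap, the smallest possible with these arrays, and 0.122 after Benjamini-Hochberg adjustment over the 11 pairs, so none passed. For Sars against Sars2, where both genes rose, the difference was 0.17 (SE 0.09). Lars against Lars2, added after the values were seen, went the other way: the change of Lars was below that of Lars2 by 0.33 on the log2 scale (-0.33, SE 0.06; exact permutation p = 0.1), with no overlap. With it the cytosolic gene had the greater change in 9 of 12 pairs, and the smallest adjusted p was 0.12.

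**Figure D3:**
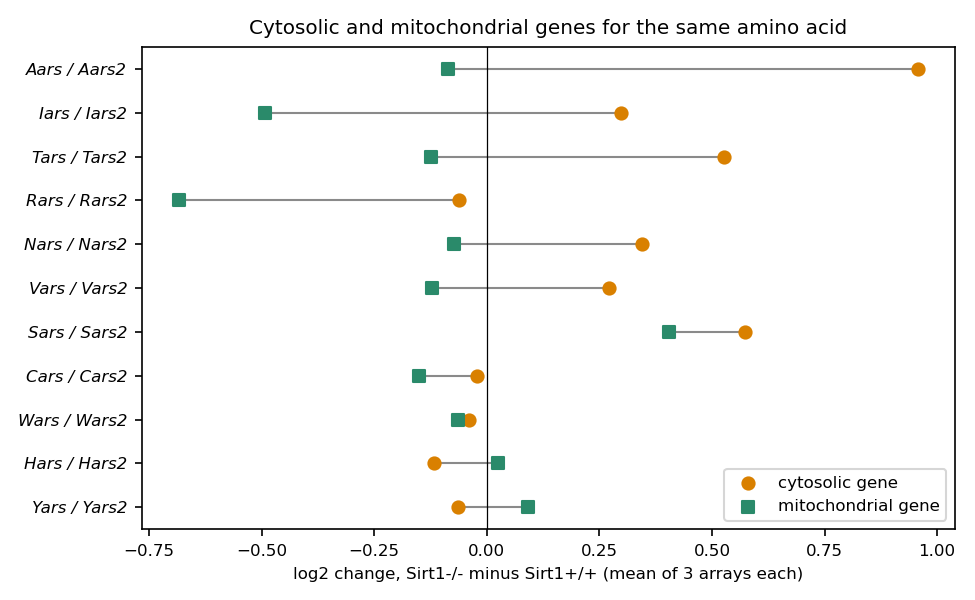
Log2 change (Sirt1-/- minus Sirt1+/+) of the cytosolic gene (circle) and the mitochondrial gene (square) for the same amino acid in 11 pairs, each point from the means of 3 arrays per genotype. The cytosolic point lies to the right in 9 pairs, by 1.04 for Aars and Aars2, and to the left for Hars and Yars.

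Other genes of mitochondrial tRNA charging and use were mostly lower. Of 5 measured charging partners 1 rose and 3 fell, where 12.5% of all genes rose and 17.5% fell. Lars2, the mitochondrial leucyl-tRNA synthetase gene, read 7.05, 6.84 and 6.96 on wild-type arrays and 7.42, 7.42 and 7.40 on knockout arrays, a log2 change of 0.46 (limma adjusted p = 0.00238). Gatb and Gatc, subunits of the amidotransferase that makes mitochondrial glutaminyl-tRNA from glutamyl-tRNA, fell by 0.58 and 0.54 (limma adjusted p = 0.0249 and 0.00786). Mtfmt, which formylates the initiator methionyl-tRNA, fell by 0.32 (adjusted p = 0.00589), and the amidotransferase subunit Qrsl1 read 0.11 without passing. The Gatb call was lost without wild-type replicate 1 (adjusted p = 0.0709), 2 (0.0515) or 3 (0.0765), and the Gatb and Mtfmt calls were lost with all probe sets of a gene averaged (-0.25, adjusted p = 0.19, and -0.20, adjusted p = 0.0705), which left 1 charging partner lower.

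The mitochondrial elongation factors, which bring charged tRNA to the mitochondrial ribosome, gave 3 of 4 lower and none higher (limma, also none higher at an unadjusted p under 0.05). Gfm2 fell by 0.33, Tufm by 0.27 and Gfm1 by 0.26 (limma adjusted p = 0.00857, 0.013 and 0.0177), and Tsfm read -0.05. The Gfm1 call was lost without wild-type replicate 2 (adjusted p = 0.0502) or knockout replicate 1 (0.0511), and its value was 0.06 with all its probe sets averaged. Of 4 measured cytosolic elongation factors 1 rose, Eef2, by 0.15 (adjusted p = 0.0431), and that call was lost whichever array was left out (adjusted p = 0.0911 to 0.113). Of 12 genes of tRNA processing and export 3 rose and 3 fell, 25% each, against 12.5% and 17.5% of all genes. Among them were the RNase P and MRP subunits Rpp40 (-0.32), Rpp25 (-0.30), Rpp30 (0.29) and Pop1 (0.28). The Rpp25 call was lost without wild-type replicate 1 or 3 or without knockout replicate 1 or 3 (adjusted p = 0.0605 to 0.0809). With all probe sets averaged Pop1 read 0.14 (adjusted p = 0.167) and 1 gene of this list was higher, and 5 were lower without the dimmest genes, with quantile normalisation repeated and with an intensity trend. Of 4 proofreading factors none passed in limma, with 2 at an unadjusted p under 0.05.

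The integrated stress response list, which holds the eIF2 kinases, ATF4 and its well known targets but no aminoacyl-tRNA synthetase, was higher in most genes. Of 27 measured genes 18 rose and 3 fell (Ndrg1, Eif2ak4 and Eif2ak1), against 12.5% and 17.5% of all genes. The median log2 change was 0.40. Of the 25 that are not on chromosome 8, 16 rose. Nupr1 rose by 2.20, Ddit3, which encodes the transcription factor CHOP, by 1.27, the hormone gene Fgf21 by 1.23 and the pseudokinase gene Trib3 by 0.96 (limma adjusted p = 2.62e-05, 5.24e-05, 0.00019 and 0.000155). Atf4 itself, whose protein is controlled largely at translation, read 11.57, 11.57 and 11.53 on wild-type arrays and 11.48, 11.52 and 11.47 on knockout arrays. Its log2 change was -0.07 (limma adjusted p = 0.335). The RNAs of the eIF2 kinases went different ways. Eif2ak3, which encodes the endoplasmic reticulum sensor PERK, rose by 0.57 (adjusted p = 0.000407), and Eif2ak4, which encodes GCN2, the kinase that senses uncharged tRNA, fell by 0.41 (adjusted p = 0.00205). Eif2ak1 read -0.25 (adjusted p = 0.0488) and kept its call without wild-type replicate 2 alone among the single arrays (otherwise adjusted p = 0.0671 to 0.122), and Eif2ak2 read 0.01. The Eif2ak1 call was also lost with quantile normalisation repeated, median centring or an intensity trend (limma adjusted p = 0.0735 to 0.0743). Averaged probe sets (0.111), the replicate block (0.062) and leaving out chromosome 8 (0.0503) lost it too. These kinases and Asns were chosen after their values were seen, and the Eif2ak4 call was lost with all its probe sets averaged (-0.21, adjusted p = 0.0815). That setting left 1 gene of the list lower.

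**Figure D4:**
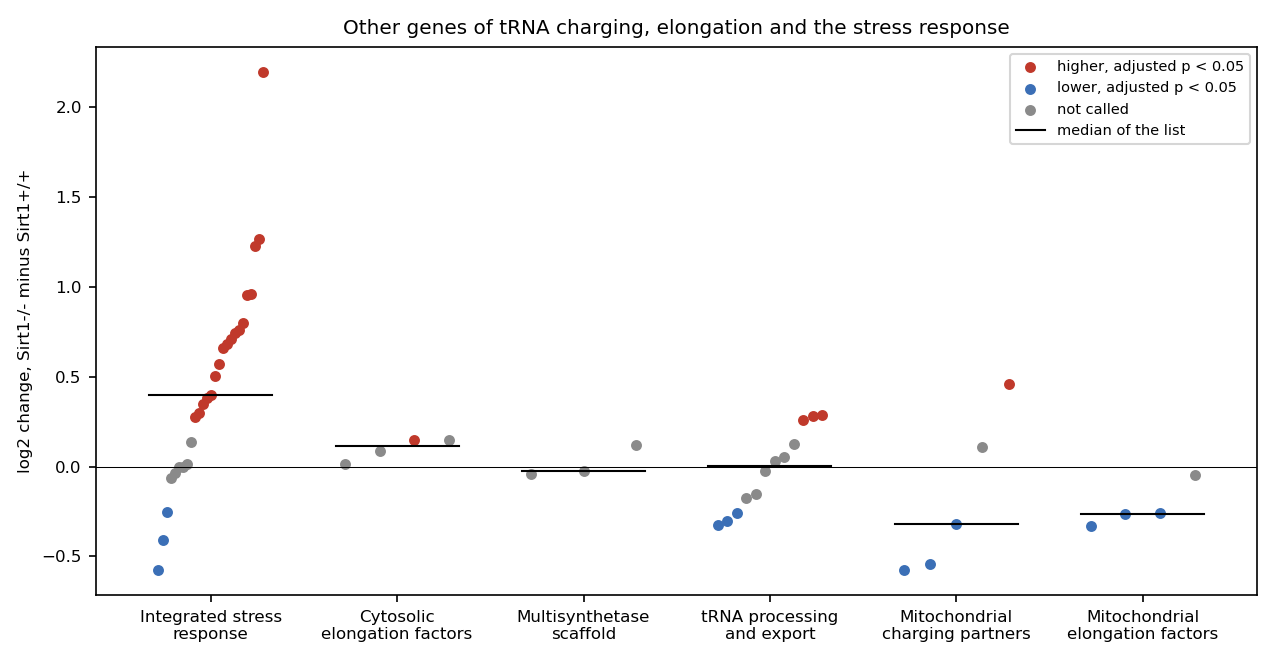
Log2 change (Sirt1-/- minus Sirt1+/+) of each measured gene in 6 lists around tRNA charging, 1 point per gene, coloured by call at an adjusted p under 0.05, with the list median as a line. The stress response list reaches from -0.58 to 2.20 with a median of 0.40, and the 4 mitochondrial elongation factors all lie below 0.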

How the data were processed

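The deposited values are log2 levels per probe set, which the submitters' processing notes trace to Partek 6.5 and RMA. The log2 scale was read from their range, and the sources used here give no other setting. RMA normalises arrays to a common distribution, which can hide a change shared by all genes. Of 45101 probe sets 34945 named 1 gene symbol by the platform annotation, 932 several and 9160 none, and 64 were controls. Only those with 1 symbol were used, and the brightest probe set over the 6 arrays stood for each of 18193 genes. Chromosomes came from RefSeq on GRCm38.p6 by Entrez identifier (18031 genes matched), and promoters likewise.

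All genes were fitted with limma 3.58.1 in R 4.3.3 (lmFit, eBayes, 2 groups, two-sided, Benjamini-Hochberg at 0.05 over all genes). Tested on simulated data with 18193 genes, the fit recovered 6% of 50 genes changed by 0.25 (log2), 38% of those changed by 0.5, 90% by 1 and 98% by 2, and made 4 false calls. Far fewer genes were changed there than the 5462 called in the data, which makes the adjusted threshold stricter, so these shares are not those of the comparison itself. The members and lists were chosen with earlier results of these data known. Every member, Sirt1, Atf4 and, of each other list, up to 4 genes with the largest called change were to be named, and marker genes are given by list. Protein identity between paired enzymes was not analysed here. The alternatives were a repeated quantile normalisation, median centring, removal of the dimmest 40% of genes, averaged probe sets, an intensity trend with robust variance, the replicate block, each array left out, an adjusted p of 0.01, all probe sets, and no chromosome 8.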

Additional observations from a re-analysis of the deposited data

How the results depend on the processing

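The direction of both list medians held under every alternative for which they were computed, which leaves out the test over all probe sets. The cytosolic median was 0.21 with quantile normalisation repeated, 0.24 with arrays centred on their medians, 0.26 with all probe sets averaged, 0.13 without chromosome 8, and 0.21 to 0.24 with 1 array left out, against 0.23. The cytosolic minus mitochondrial median was 0.30 with quantile normalisation repeated and 0.24 without chromosome 8, where fewer members remain. Without the dimmest genes 7 of 14 mitochondrial members were called, 2 higher and 5 lower. Fewer genes were tested there, and 5879 of all 10916 were called, so the members were called about as often as other genes. At an adjusted p under 0.01, 3356 genes were called in place of 5462, and 11 of the 33 members in place of 14.

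Of the 14 called members 11 kept their call under every alternative that held them (Aars, Farsa and Kars are removed without chromosome 8), and Eprs, Mars2 and Vars lost theirs under at least 1. Of the 19 others, 8 were called under at least 1 alternative: Cars2, Ears2, Fars2, Hars, Lars, Pars2, Tars2 and Vars2. Hars was called lower without the dimmest genes (limma adjusted p = 0.035) and with the intensity trend (0.0154). In both settings 11 cytosolic members were higher and 1 was lower. With all probe sets averaged the sign turned for Cars (0.071), Wars (0.0085), Farsb (-0.10), Hars2 (-0.036) and, among other genes, Gfm1 (0.058). With 1 array left out Hars2 ranged from -0.0048 (without wild-type replicate 2) to 0.068, and Wars2 from -0.151 to 0.068 (without knockout replicate 2). The cause was not tested.

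Arrays with the same number deviated from their genotype means with correlations of 0.0515, -0.0865 and 0.198, so the numbers were not taken to pair the samples. With the replicate block 4700 genes were called, 9 cytosolic members (Eprs was lost, adjusted p = 0.0781) and 5 mitochondrial ones (Pars2 was gained, adjusted p = 0.0397). Changes near 0.25 were seldom recovered on simulated data, but far fewer genes were changed there than the 5462 called here. The adjustment was stricter for that reason, and the simulated shares do not give the recovery in these data. With 3 arrays a group a member that was not called may still differ.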

Other observations

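The cytosolic synthetases fall into 2 structural classes by their catalytic domain, a division applied here after the values were seen and therefore without a test. Of the 9 measured class II genes 7 rose, all but Hars and Farsb, with a median log2 change of 0.45. Of the 8 measured class I genes 2 rose, Iars and Vars, with a median of 0.02. Over all genes 12.5% rose. Eprs, which holds a domain of each class, was counted in neither. Aars, Kars and Farsa, the cytosolic genes on chromosome 8, are all of class II.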
